A study of Homo sapiens with 12 samples.

Results

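The apoptosome, the caspases it acts on and the inhibitors that hold those caspases back were followed through 8 genes: APAF1, CASP9, CYCS, CASP6, XIAP, BIRC2, BIRC3 and DIABLO. They were chosen by name for their place in the mitochondrial death pathway, by a rule that uses no measured value though with earlier results of these data known, and they are 8 of the 60591 genes in the count table. All 8 had enough reads to be tested, and 19108 genes in all were tested.

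Polyadenylated RNA was sequenced from 2 human non-small cell lung cancer lines, PC9 and H1650, both of which carry an activating deletion in EGFR. Cells given 0.1% DMSO were collected at time 0 (T0), and cells given 10 µM erlotinib or 0.1 µM osimertinib, both inhibitors of the EGFR kinase, were collected after 36 h. The 6 groups of line and treatment had 2 libraries each, all from wild-type cells (the genotype in the labels) grown in the same medium, and each line is a single established line. The series set the more drug-sensitive PC9 beside H1650 and asked how expression changed under the drugs. A DMSO control of 36 h was not among the libraries used here, so time in culture and drug cannot be told apart. Both drugs are set against the same T0 libraries.

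In the intrinsic pathway of apoptosis, cytochrome c leaves damaged mitochondria and binds APAF1, which assembles into the apoptosome and activates the initiator caspase-9. Caspase-9 cleaves executioner caspases, and caspase-6 is one of the caspases active downstream. The inhibitor of apoptosis proteins act at different points: XIAP binds and blocks caspases directly, cIAP1 and cIAP2 (encoded by BIRC2 and BIRC3) are ubiquitin ligases that restrain cell death and noncanonical NF-kB signalling, and SMAC, the product of DIABLO, is released from mitochondria and antagonizes the inhibitors.

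The genes lie on 6 chromosomes, and BIRC3 and BIRC2 are neighbours. In GENCODE 29 (GRCh38), the build named in the submitters' processing notes, APAF1 is at chr12:98645141-98735433 on the plus strand, CASP9 at chr1:15490832-15526534 on the minus strand, CYCS at chr7:25120091-25125361 on the minus strand and CASP6 at chr4:109688622-109703583 on the minus strand. XIAP is at chrX:123859724-123913979, BIRC3 at chr11:102317450-102339403 and BIRC2 at chr11:102347211-102378670, all on the plus strand, with 7807 bases between the end of BIRC3 and the start of BIRC2. DIABLO is at chr12:122207663-122226568 on the minus strand. Counts cover whole genes, so no exon, intron or isoform was measured on its own.

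Promoters are shown for BIRC3, whose direction of change differed between the lines, and for CYCS, which fell in both. The bases were taken from RefSeq (GRCh38.p14), where all 8 genes matched a window of 250 bases before a start site, 15 windows in all, and each printed stretch ends before the first base of the gene in GENCODE 29. Capitals mark matches to the kappa-B consensus in BIRC3 (chr11:102317234-102317449, plus strand) and to the NRF1 motif GCATGCGC in CYCS (chr7:25125362-25125510, minus strand), each written 5′ to 3′.
BIRC3 promoter: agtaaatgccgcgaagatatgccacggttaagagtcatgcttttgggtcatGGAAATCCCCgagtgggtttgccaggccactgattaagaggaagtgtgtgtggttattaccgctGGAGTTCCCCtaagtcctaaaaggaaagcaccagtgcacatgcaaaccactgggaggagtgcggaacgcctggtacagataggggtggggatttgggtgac
CYCS promoter: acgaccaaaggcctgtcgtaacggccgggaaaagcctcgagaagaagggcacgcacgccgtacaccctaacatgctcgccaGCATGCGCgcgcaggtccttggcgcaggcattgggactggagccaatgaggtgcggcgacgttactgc
Both strands were searched in the full windows of the 8 genes, and no 2 matches overlapped. BIRC3 was the one gene of the 8 with the kappa-B consensus, at 199 and 135 bases before its RefSeq start, and 5.21% of all 35116 windows held a match. CYCS was the one gene with the NRF1 motif, which 2.63% of windows held, and BIRC2 the one with the CRE motif TGACGTCA, which 1.65% held. The E2F motif TTTNGCGC, in 1.51% of all windows, and the FOXO motif TGTTTAC, in 2.98%, matched none of the 15 windows. A match describes letters in these windows and no factor was measured at them.

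The libraries held 17961765 to 26346187 counts assigned to genes. The smallest member count was 23 reads, for DIABLO, and the other members had at least 67 reads in every library. All 6 markers of lung epithelial lines had at least 10 counts in every library, summing to 6162 to 13300 CPM, against sums of 0.462 to 3.96 CPM for 4 leukocyte markers, 0.193 to 5.55 CPM for 3 endothelial markers and 16.9 to 45.8 CPM for 4 fibroblast markers, most of the last from COL1A1. Levels below are normalized CPM, read counts scaled to library size and composition. Changes were tested by the quasi-likelihood method of edgeR, p-values were adjusted by Benjamini and Hochberg over all 19108 genes, and an adjusted p under 0.05 was the threshold for a change. The labels do not say whether the 2 libraries of a group came from separate cultures. The study's supplement calls its replicates biological, and p-values here measure the spread between these samples. In these bulk samples, fewer cells with a transcript and less of it per cell cannot be told apart.

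In PC9 under erlotinib, 6 of the 8 genes changed, where 61.8% of all tested genes did. Of these, 5 rose (APAF1, CASP9, BIRC2, BIRC3 and DIABLO; 32.7% of all genes rose) and CYCS fell (29.1% of all genes fell). Under osimertinib the same 6 PC9 genes changed, where 61.4% of all genes did, with the same 5 higher against 32.7% of all genes and CYCS lower against 28.7%. The share of the 8 that changed is close to the share of all genes in this line, so the count alone sets them apart in neither comparison. The median change of the 8 was 0.42 on the log2 scale under erlotinib and 0.56 under osimertinib, beside medians of 0.074 and 0.064 over all tested genes.

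Fewer of these genes passed the threshold in H1650 than in PC9, and so did fewer of all tested genes. The share of the 8 that changed is close to the share of all genes here too, so the count alone does not set them apart. Under erlotinib 3 of the 8 changed (36.5% of all genes did), with CASP9 higher (18.0% of all genes) and CYCS and BIRC3 lower (18.5%). Under osimertinib the same 3 changed in the same directions, beside 35.7% of all genes in either direction, 17.8% higher and 17.9% lower. The median change of the 8 was -0.047 under erlotinib and -0.14 under osimertinib, beside 0.0051 and 0 over all tested genes.

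**Figure D1:**
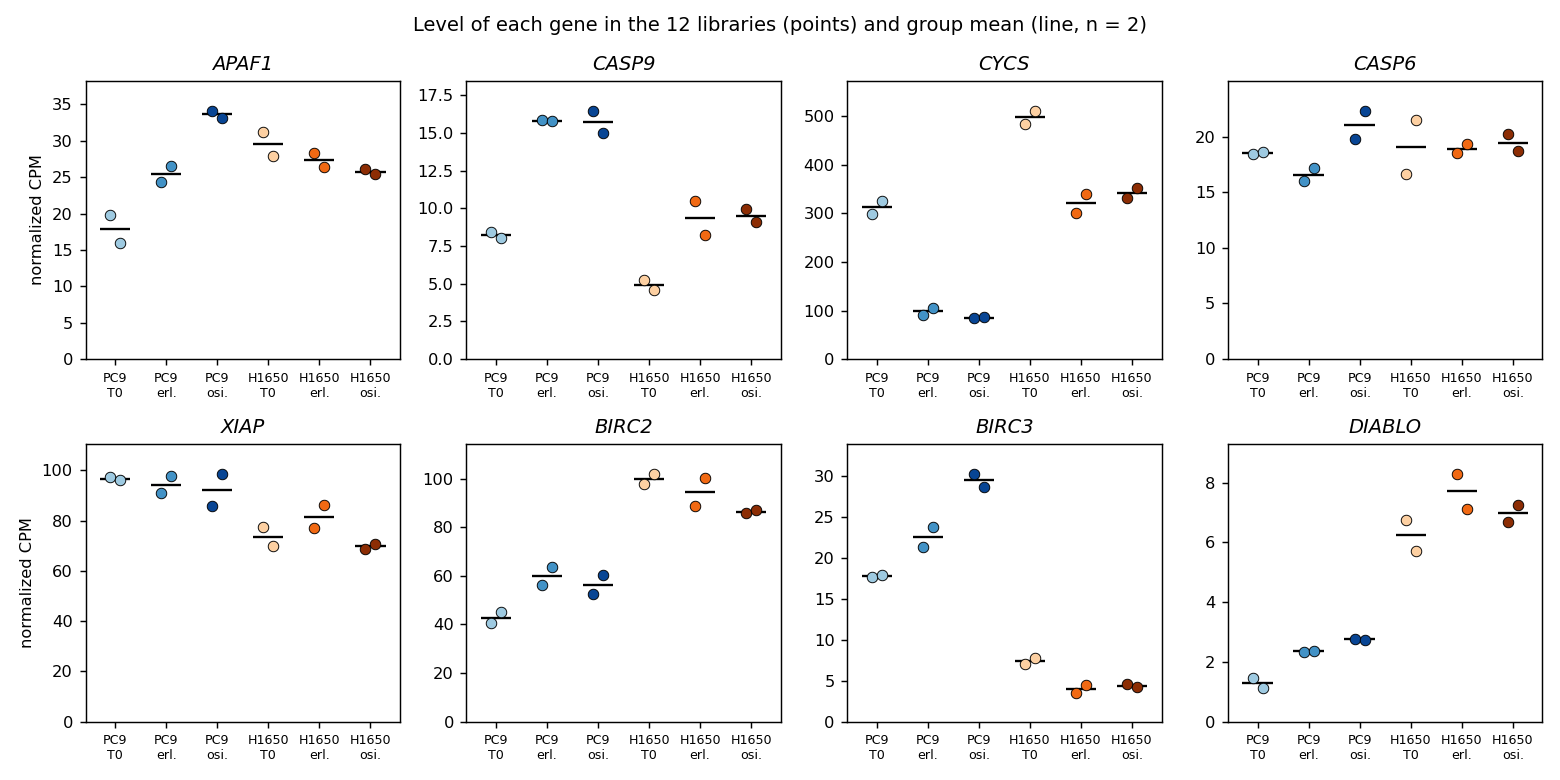
Normalized CPM (vertical axes, linear, from 0) of the 8 genes in the 6 groups of line and treatment (horizontal axes); points are the 2 libraries of a group and lines their mean. CYCS drops from 299 and 326 CPM at T0 to between 84.1 and 106 CPM in treated PC9 cells, CASP9 is higher in every treated library than in its own line at T0, and BIRC3 goes up in PC9 and down in H1650.

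CYCS, the gene for cytochrome c, had the largest change of the 8 genes in PC9. Its level there was 299 and 326 CPM at T0, 90.9 and 106 CPM under erlotinib, and 84.1 and 86.4 CPM under osimertinib. Every treated PC9 library was therefore far below both T0 libraries, with no overlap. The fall was 3.18-fold under erlotinib (log2 fold change -1.67, SE 0.0819, edgeR adjusted p = 2.78e-16) and 3.67-fold under osimertinib (-1.87, SE 0.0832, adjusted p = 2.51e-17).

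H1650 started with more CYCS and lost less of it. The T0 libraries had 484 and 512 CPM, the erlotinib libraries 301 and 339.9 CPM, and the osimertinib libraries 331 and 352 CPM. Treated and T0 libraries did not overlap in this line either, while the erlotinib and osimertinib libraries did. CYCS fell 1.55-fold under erlotinib (log2 -0.63, SE 0.0784, edgeR adjusted p = 2.37e-07) and 1.46-fold under osimertinib (-0.54, SE 0.0783, adjusted p = 2.86e-06). Treated H1650 cells thus held about as much CYCS as PC9 cells did at T0. The H1650 erlotinib libraries overlapped the PC9 T0 libraries, and both H1650 osimertinib libraries lay above them.

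The change in CYCS from T0 to 36 h of drug differed between the lines by more than the error. The change in H1650 minus that in PC9 was 1.03 for erlotinib (SE 0.112, edgeR adjusted p = 1.47e-08) and 1.33 for osimertinib (SE 0.113, adjusted p = 1.11e-10), both on the log2 scale. The 41 rows named as CYCS pseudogenes held between 0.183% and 0.909% as many reads as CYCS itself in a library, and adding their reads to CYCS left its calls as they were in every comparison.

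APAF1 encodes the scaffold of the apoptosome, and it rose in PC9. Its PC9 libraries had 19.9 and 15.9 CPM at T0, 24.4 and 26.6 CPM under erlotinib, and 34.1 and 33.2 CPM under osimertinib. The 3 PC9 groups did not overlap, with T0 lowest and osimertinib highest. The rise was 1.42-fold under erlotinib (log2 0.51, SE 0.112, edgeR adjusted p = 2.56e-04) and 1.88-fold under osimertinib (0.91, SE 0.111, adjusted p = 4.29e-08).

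H1650 showed no such rise in APAF1. Its libraries had 31.2 and 27.97 CPM at T0, 28.4 and 26.4 CPM under erlotinib, and 26.1 and 25.4 CPM under osimertinib. The erlotinib libraries overlapped those of T0, and both osimertinib libraries lay just below the other 4. Neither change passed the test: the log2 fold change was -0.11 under erlotinib (95% interval -0.33 to 0.11, edgeR adjusted p = 0.449) and -0.20 under osimertinib (-0.42 to 0.02, adjusted p = 0.153). The difference between the lines was itself past the threshold, at -0.62 for erlotinib (SE 0.154, adjusted p = 0.00171) and -1.11 for osimertinib (SE 0.154, adjusted p = 9.00e-07) on the log2 scale. With T0 levels 1.65-fold higher in H1650 than in PC9 (log2 0.72, adjusted p = 1.68e-06), the order turned under osimertinib, where H1650 was lower by 0.39 on the log2 scale (-0.39, SE 0.107, adjusted p = 0.00215).

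CASP9, the gene for the caspase that the apoptosome activates, rose to nearly the same extent in all 4 comparisons with T0. In PC9 it went from 8.42 and 7.996 CPM to 15.9 and 15.8 CPM under erlotinib and 16.5 and 14.97 CPM under osimertinib. In H1650 it went from 5.22 and 4.59 CPM to 10.5 and 8.24 CPM under erlotinib and 9.93 and 9.09 CPM under osimertinib. Each treated library was above both T0 libraries of its own line, and the erlotinib and osimertinib libraries overlapped in both lines.

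The rises in CASP9 were 1.93-fold and 1.92-fold in PC9 (erlotinib log2 0.95, SE 0.145, edgeR adjusted p = 2.04e-06; osimertinib 0.94, SE 0.147, adjusted p = 2.71e-06). They were 1.91-fold and 1.94-fold in H1650 (erlotinib log2 0.93, SE 0.160, adjusted p = 3.47e-05; osimertinib 0.96, SE 0.159, adjusted p = 2.20e-05). No difference between the lines in the change from T0 was detected. The 95% interval of the difference ran from -0.47 to 0.44 for erlotinib and from -0.42 to 0.46 for osimertinib. CASP9 stayed lower in H1650 than in PC9 throughout, by -0.75 at T0 (adjusted p = 2.09e-04), -0.76 under erlotinib (adjusted p = 2.98e-05) and -0.73 under osimertinib (adjusted p = 5.65e-05). On the opposite strand, CELA2B shares 106 of the 5269 exon bases of CASP9 and had 0 to 6 reads a library.

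CASP6, the gene for a caspase downstream of the apoptosome, did not pass the threshold in any of the 11 comparisons as fitted. It had 18.4 and 18.6 CPM in PC9 at T0, 15.99 and 17.2 CPM under erlotinib, and 19.8 and 22.3 CPM under osimertinib. In H1650 it had 16.6 and 21.5 CPM at T0, 18.5 and 19.3 CPM under erlotinib, and 20.2 and 18.7 CPM under osimertinib. The PC9 groups were separate from one another but close, and the 3 H1650 groups overlapped. The 4 changes against T0 ran from -0.16 to 0.18 on the log2 scale, and the smallest of their adjusted p-values by edgeR was 0.205. All 4 of their 95% intervals lay between -0.41 and 0.44, and calls it gained under other settings lay outside these 4. CASP6 passed between the lines under erlotinib with library totals (0.28, adjusted p = 0.0438), and in PC9 osimertinib against erlotinib without library 1 (adjusted p = 0.0394) or 2 (adjusted p = 0.0417) of H1650 T0. RLE factors brought the drug comparison (0.35) to just under the threshold as well. With replicate number as a block the drug comparison also passed (0.34, edgeR adjusted p = 0.0256). MCUB, on the opposite strand, shares 105 of 1943 exon bases with CASP6 and had 99 to 987 reads a library. The counting strand is not given in the sources used here.

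XIAP, the inhibitor that binds caspases directly, did not change past the threshold under either drug. Its PC9 libraries had 97.2 and 96.0 CPM at T0, 90.9 and 97.7 CPM under erlotinib, and 85.8 and 98.7 CPM under osimertinib. In H1650 it had 77.3 and 69.9 CPM at T0, 77.0 and 86.1 CPM under erlotinib, and 68.8 and 70.8 CPM under osimertinib. Within each line every treated group overlapped T0. In PC9 the log2 changes (erlotinib, then osimertinib) were -0.034 and -0.067, and in H1650 0.15 and -0.075, with edgeR adjusted p-values from 0.176 to 0.755 and 95% intervals between -0.25 and 0.32. XIAP was 1.31-fold lower in H1650 than in PC9 at T0 (log2 -0.39, SE 0.0840, adjusted p = 1.65e-04) and 1.32-fold lower under osimertinib (-0.40, SE 0.0847, adjusted p = 1.38e-04). Under erlotinib the gap was -0.21 (SE 0.0836, adjusted p = 0.0275) and was lost without erlotinib library 1 of H1650 (-0.13, adjusted p = 0.273) or library 2 of PC9 (-0.16, adjusted p = 0.175), and with library totals (-0.12, adjusted p = 0.182).

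BIRC2, which encodes cIAP1, rose in PC9. It had 40.6 and 45.1 CPM at T0, 56.3 and 63.8 CPM under erlotinib, and 52.5 and 60.3 CPM under osimertinib in this line. The treated libraries were all above T0 and overlapped each other. The rise was 1.40-fold under erlotinib (log2 0.49, SE 0.0910, edgeR adjusted p = 3.66e-05) and 1.31-fold under osimertinib (0.39, SE 0.0922, adjusted p = 5.29e-04).

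In H1650, BIRC2 began 2.33-fold higher than in PC9 (log2 1.22, SE 0.0900, edgeR adjusted p = 1.51e-12) and did not rise. It had 97.9 and 102 CPM at T0, 88.9 and 100.1 CPM under erlotinib, and 85.7 and 87.1 CPM under osimertinib. The erlotinib libraries overlapped T0 and the osimertinib libraries lay below it. Neither drug's change passed the test (erlotinib -0.081, adjusted p = 0.498; osimertinib -0.21, adjusted p = 0.0572). The lines differed in the response, by -0.57 for erlotinib (SE 0.125, adjusted p = 5.08e-04) and -0.60 for osimertinib (SE 0.126, adjusted p = 2.67e-04).

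BIRC3, which encodes cIAP2 and is a well-known NF-kB target gene, moved in opposite directions in the lines. PC9 had 17.6 and 17.9 CPM at T0, 21.4 and 23.7 CPM under erlotinib, and 30.3 and 28.6 CPM under osimertinib. H1650 had 7.04 and 7.79 CPM at T0, 3.46 and 4.47 CPM under erlotinib, and 4.63 and 4.19 CPM under osimertinib. The 3 PC9 groups did not overlap, with osimertinib highest, and every treated H1650 library was below both of its T0 libraries.

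The rise of BIRC3 in PC9 was 1.66-fold under osimertinib (log2 0.73, SE 0.122, edgeR adjusted p = 7.18e-06) and 1.27-fold under erlotinib (0.35, SE 0.122, adjusted p = 0.0159). The erlotinib call was lost with DESeq2 (0.32, adjusted p = 0.0876), without a low-count filter (0.28, adjusted p = 0.0950), without T0 library 1 (0.33, adjusted p = 0.0807) or 2 (0.35, adjusted p = 0.0651), and without erlotinib library 2 of PC9 (0.26, adjusted p = 0.145). The fall in H1650 was 1.87-fold under erlotinib (log2 -0.90, SE 0.162, adjusted p = 6.09e-05) and 1.69-fold under osimertinib (-0.76, SE 0.158, adjusted p = 3.59e-04). The difference between the lines in the change from T0 was -1.25 for erlotinib (SE 0.203, edgeR adjusted p = 1.16e-05). For osimertinib it was -1.49 (SE 0.199, adjusted p = 5.15e-07). BIRC3 was 2.39-fold lower in H1650 than in PC9 at T0, and the gap was 5.66-fold under erlotinib and 6.69-fold under osimertinib.

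DIABLO, the gene for SMAC, had the lowest level per length of the 8 in PC9 and rose there. Its PC9 libraries had 1.46 and 1.14 CPM at T0 (29 and 23 reads), 2.33 and 2.38 CPM under erlotinib, and 2.77 and 2.75 CPM under osimertinib. Both drugs lay above T0 in every library. The rise was 1.81-fold under erlotinib (log2 0.86, SE 0.269, edgeR adjusted p = 0.00705) and 2.12-fold under osimertinib (1.09, SE 0.269, adjusted p = 9.35e-04). The erlotinib call was lost without T0 library 2 of PC9 (0.68, adjusted p = 0.0867).

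H1650 had more DIABLO, with 6.76 and 5.71 CPM at T0, 8.31 and 7.12 CPM under erlotinib, and 6.68 and 7.26 CPM under osimertinib. The osimertinib libraries overlapped T0, both erlotinib libraries lay above it, and neither change passed the test (log2 0.31, edgeR adjusted p = 0.212, and 0.17, adjusted p = 0.544). DIABLO was 4.78-fold higher in H1650 than in PC9 at T0 (log2 2.26, SE 0.240, adjusted p = 2.76e-09). The response differed between the lines for osimertinib (-0.92, SE 0.329, adjusted p = 0.0252) but not past the threshold for erlotinib (-0.55, SE 0.329, adjusted p = 0.196). The osimertinib difference was lost with DESeq2 (adjusted p = 0.0797), without a low-count filter (0.0786), and without library 2 of PC9 T0 (-0.75, adjusted p = 0.138) or library 1 of PC9 osimertinib (0.0619), H1650 T0 (0.0918) or H1650 osimertinib (0.0716).

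The level of DIABLO is uncertain. GENCODE 29 lists a further gene record of the same name that shares 2006 of the 6774 exon bases of DIABLO, and AC048338.1, also on its strand, shares 1139. A read in exons of more than one gene is by default given to none of them by featureCounts, and the setting used is not given in the sources used here. AC048338.1 had 0 reads in every library, and AC048338.2, whose listed length of 2351 bases equals that of the further DIABLO record, had 0 to 2 reads. B3GNT4, on the opposite strand, shares 970 exon bases with DIABLO and had 24 to 69 reads.

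**Figure D2:**
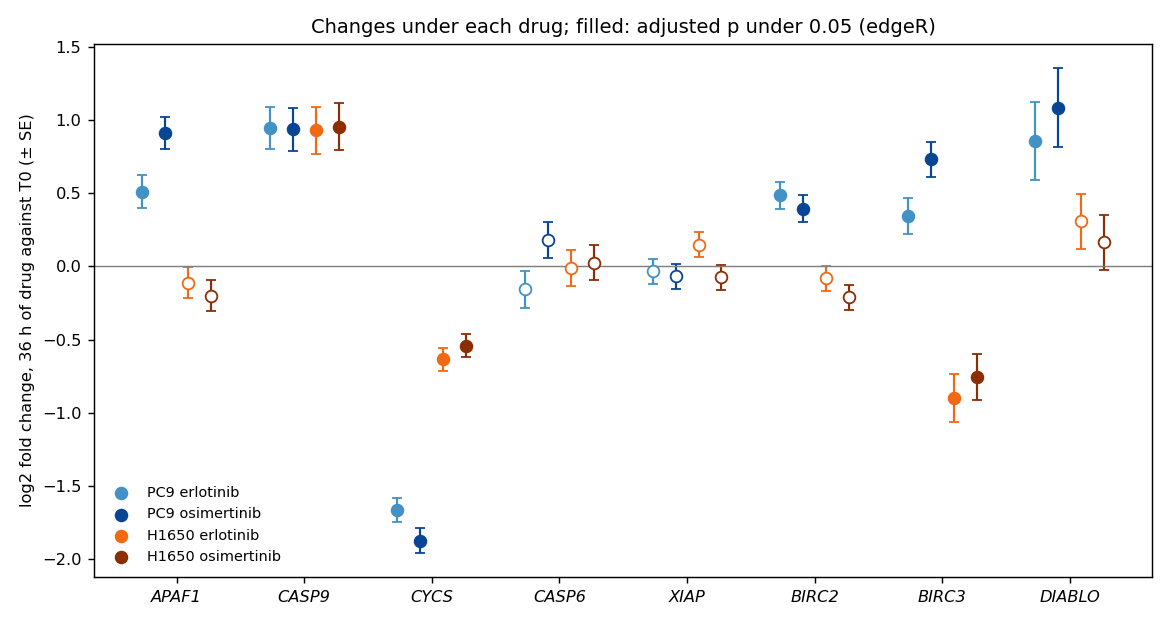
Log2 fold change after 36 h of drug against T0 (vertical axis, ± SE) for the 8 genes in the 4 comparisons of line and drug; filled points have an edgeR adjusted p under 0.05. CASP9 sits between 0.93 and 0.96 in all 4 comparisons, CYCS lies lower in PC9 than in H1650, BIRC3 is on opposite sides of 0 in the lines, and XIAP and CASP6 stay near 0.

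The change from T0 differed between the lines for 4 of the 8 genes under erlotinib (40.8% of all genes differed), namely APAF1, CYCS, BIRC2 and BIRC3. With H1650 minus PC9 as the direction, CYCS was higher (21.1% of all genes) and the other 3 were lower (19.8%). For osimertinib 5 of the 8 differed, DIABLO added, where 41.9% of all genes did, with 1 higher (21.5% of all genes) and 4 lower (20.5%). The counts are near the share of all genes for erlotinib and somewhat above it for osimertinib. The osimertinib count includes the DIABLO call, lost under several settings, and with DESeq2 it was 4 of 8. The median difference of the 8 was -0.28 for erlotinib and -0.38 for osimertinib, beside -0.032 and -0.026 over all tested genes.

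At T0 the lines already differed in 7 of the 8 genes, where 69.6% of all genes did. APAF1, CYCS, BIRC2 and DIABLO were higher in H1650 (4 of 8, against 35.8% of all genes) and CASP9, XIAP and BIRC3 were lower (3 of 8, against 33.8%). CYCS was 1.59-fold higher in H1650 at T0 (log2 0.67, SE 0.0785, edgeR adjusted p = 1.68e-08), and CASP6 did not differ past the threshold (0.045, adjusted p = 0.756).

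Under erlotinib 6 of the 8 differed between the lines (72.1% of all genes), 3 higher in H1650 (36.7%) and 3 lower (35.4%). APAF1 dropped out of the differing genes there (log2 0.10, 95% interval -0.12 to 0.32, edgeR adjusted p = 0.400). Under osimertinib 7 differed (71.6% of all genes), with CYCS, BIRC2 and DIABLO higher in H1650 (36.6%) and APAF1, CASP9, XIAP and BIRC3 lower (35.0%). CYCS was 3.26-fold higher in H1650 under erlotinib and 4.01-fold higher under osimertinib, while DIABLO narrowed to 3.26-fold and 2.52-fold and BIRC2 to 1.57-fold and 1.54-fold.

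Osimertinib and erlotinib were given at different doses, so their comparison sets the treatments as given side by side. In PC9, 2 of the 8 genes differed (16.6% of all genes), both higher under osimertinib (10.1%) and 0 lower (6.41%). APAF1 was 1.32-fold higher under osimertinib (log2 0.40, SE 0.106, edgeR adjusted p = 0.00842) and BIRC3 1.31-fold higher (0.39, SE 0.118, adjusted p = 0.0235). The APAF1 call was lost without library 1 of either PC9 drug group (adjusted p = 0.0897 without the erlotinib library and 0.0659 without the osimertinib library). BIRC3 lost its call with DESeq2 (adjusted p = 0.0614), without a low-count filter (0.0559) and without library 1 of erlotinib (0.197), library 1 of osimertinib (0.158) or library 2 of osimertinib (0.0640). CASP6 and CYCS came near the threshold (0.34, adjusted p = 0.0583, and -0.21, adjusted p = 0.0910). CYCS passed there with library totals (edgeR adjusted p = 0.0258), without a low-count filter (0.0254) and with replicate number as a block (-0.20, adjusted p = 0.0149). Without erlotinib library 1 of PC9 the CYCS change was -0.31. At an unadjusted p under 0.05 CYCS was the 1 gene lower under osimertinib, and DESeq2 called 0 lower.

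In H1650, 0 of the 8 genes differed between the drugs (8.75% of all genes did, 5.02% higher under osimertinib and 3.73% lower). At an unadjusted p under 0.05 there was 1, XIAP (log2 -0.23, 95% interval -0.40 to -0.05, edgeR adjusted p = 0.104), and DESeq2 called 0. XIAP passed with library totals (-0.28, edgeR adjusted p = 0.0285) and with replicate number as a block (-0.22, adjusted p = 0.022). The widest 95% intervals among the other 7 were those of DIABLO (-0.53 to 0.24) and BIRC3 (-0.22 to 0.51).

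Levels of different genes were compared per length, as TPM, which scales reads to the gene length listed in the count table and to library size. CYCS was the highest of the 8 in every library, at 48.4 to 309.6 TPM. BIRC2 (30.1 to 81.4 TPM), CASP6 (28.1 to 38.7 TPM) and XIAP (27.1 to 36.7 TPM) came next. APAF1 had 7.03 to 14.6 TPM, BIRC3 1.72 to 13.4 TPM, CASP9 3.05 to 10.4 TPM and DIABLO 0.559 to 4.46 TPM, with the limit on DIABLO given above. The listed lengths equal the exon length in GENCODE 29 for CASP9, CASP6, XIAP, BIRC2 and BIRC3, but not for CYCS (5791 against 4457 bases), APAF1 (7759 against 7908) or DIABLO (6955 against 6774), so the TPM of these 3 carry that uncertainty.

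Cytochrome c transcripts outnumbered those of its partner APAF1 in every library, but the TPM ratio of CYCS to APAF1 fell in PC9. It was 20.2 and 27.4 in PC9 at T0, 5.00 and 5.33 under erlotinib, and 3.30 and 3.49 under osimertinib. In H1650 it was 20.8 and 24.5 at T0, 14.2 and 17.3 under erlotinib, and 17.0 and 18.6 under osimertinib. The lines overlapped at T0 and were separate under both drugs.

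The ratio of XIAP to CASP9, an inhibitor to its target, fell in both lines as CASP9 rose. In PC9 it was 6.74 and 7.01 at T0, 3.35 and 3.62 under erlotinib, and 3.04 and 3.85 under osimertinib. In H1650 it was 8.64 and 8.89 at T0, 4.29 and 6.10 under erlotinib, and 4.05 and 4.55 under osimertinib. All treated libraries were below all T0 libraries, a difference carried by CASP9 since XIAP did not change past the threshold.

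The cIAP pair was set very differently in the lines. The TPM ratio of BIRC2 to BIRC3 in PC9 was 3.82 and 4.19 at T0, 4.37 and 4.46 under erlotinib, and 2.87 and 3.49 under osimertinib. In H1650 it was 23.1 and 21.7 at T0, 42.6 and 37.2 under erlotinib, and 30.7 and 34.5 under osimertinib. Every H1650 library was far above every PC9 library, and treated H1650 libraries were all above T0. These ratios were not tested and share libraries with the tests of the single genes.

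**Figure D3:**
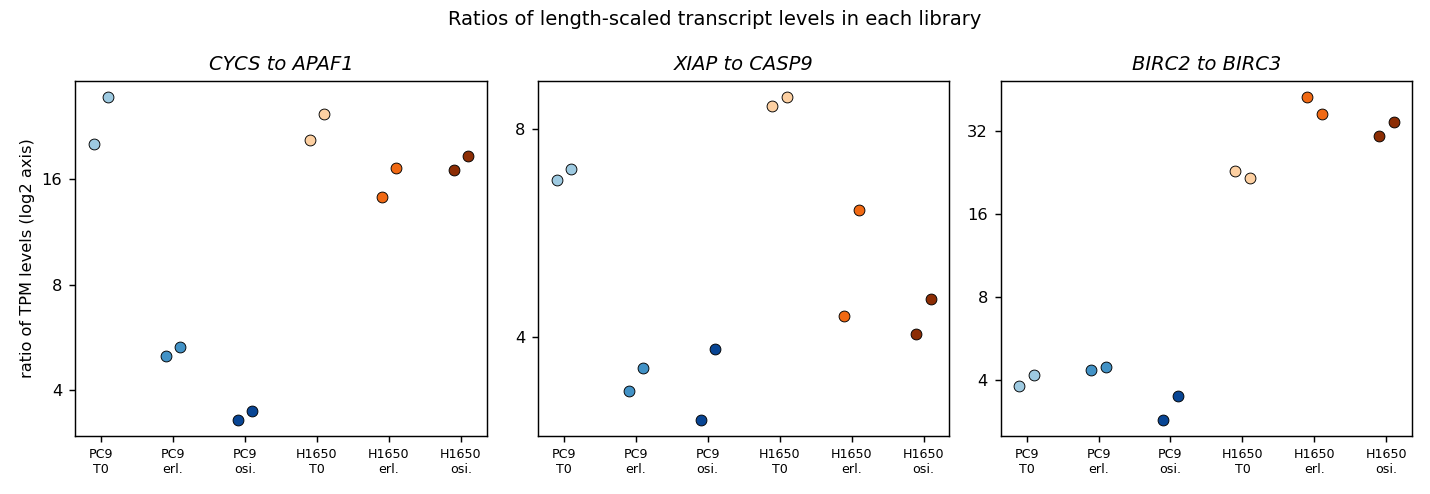
Ratios of TPM (vertical axes, log2 scale) of CYCS to APAF1, XIAP to CASP9 and BIRC2 to BIRC3 in the 6 groups (horizontal axes); each point is 1 of the 12 libraries. CYCS to APAF1 falls from above 20 to 5.33 or less in treated PC9 cells, XIAP to CASP9 falls in both lines, and BIRC2 to BIRC3 is at least 21.7 in H1650 and at most 4.46 in PC9.

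In the order of the 6 group means, several genes were ranked by line first. BIRC2 and DIABLO were higher in all 3 H1650 groups than in any PC9 group, and BIRC3 was higher in all 3 PC9 groups, with no library of one line reaching the other. XIAP was likewise higher in PC9, but neighbouring groups overlapped at every step of its order. The CYCS means were higher in all 3 H1650 groups, but the libraries of H1650 under erlotinib overlapped those of PC9 at T0. CASP9 was highest in treated PC9, with H1650 under erlotinib overlapping PC9 at T0 and H1650 at T0 lowest. APAF1 was highest in PC9 under osimertinib and lowest in PC9 at T0, with PC9 under erlotinib and the H1650 groups between, and CASP6 showed overlap at 4 of the 5 steps.

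The genes whose 6 group means most resembled each member, among 10293 other genes averaging at least 10 CPM, were listed by Pearson's r of log2 CPM as a description, with no test. These were FAM114A1 (r = 0.978) and CCDC126 (0.974) for APAF1, TSNARE1 (1.00) and DCAF8 (0.998) for CASP9, and NSL1 and L3MBTL2 (both 0.9995) for CYCS. For CASP6 they were ATP6V1A (0.913) and MFAP5 (0.901), for XIAP DNAAF2 (0.995) and ENOX2 (0.992), and for BIRC2 DYNC1LI2 (0.999) and CCDC97 (0.997). BIRC3 was most like DYNC1H1 (0.999) and MET (0.998), and DIABLO most like PALM (0.998) and N4BP2 (0.998). All 6 points come from the same libraries, and with 6 points and many candidates high values are common.

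Other genes of the pathway were taken from 8 lists of 62 genes, 58 of them tested. Counts of these lists stand beside all tested genes, of which 32.7% rose and 29.1% fell in PC9 under erlotinib, 32.7% and 28.7% under osimertinib, 18.0% and 18.5% in H1650 under erlotinib, and 17.8% and 17.9% under osimertinib, with median log2 changes of 0.074, 0.064, 0.0051 and 0. No test compares the lists with other genes or with each other. Among the 6 tested other caspases, 3 rose and 2 fell in PC9 under erlotinib and 4 rose and 2 fell under osimertinib, while 5 rose in H1650 under each drug and the other 1 did not pass the threshold. In either direction 61.8% and 61.4% of all genes changed in PC9 and 36.5% and 35.7% in H1650, and the medians of the caspases were 0.44, 0.52, 0.91 and 1.11 in the same order. CASP10, an initiator caspase of death receptors, rose like CASP9 in all 4 comparisons, by 1.17 and 1.69 in PC9 and 1.26 and 1.85 in H1650 on the log2 scale. CASP1, the inflammatory caspase, rose by 1.43 and 1.58 in PC9, from 13 reads in each T0 library, and by 2.34 and 2.71 in H1650. CASP8 fell slightly in PC9 (-0.27 and -0.21) and rose in H1650 (0.31 and 0.33), and CASP14, a caspase of skin differentiation, fell in PC9 (-2.63 and -2.45, from 31 and 53 reads at T0) and rose in H1650 (0.73 and 1.34). In each pair erlotinib stands before osimertinib.

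Of the 4 other IAP family genes tested, BIRC5, which encodes survivin, an inhibitor family member with a role in mitosis, fell in all 4 comparisons (-3.11 and -2.97 in PC9, -0.67 and -0.73 in H1650). BIRC7 rose in PC9 by 4.29 and 5.72, from 4 or 5 reads a library at T0 to 89 or more, and was called in neither H1650 comparison (-0.77 and -0.99). BIRC6, a giant ubiquitin-conjugating member, rose slightly in PC9 (0.33 and 0.23) and not past the threshold in H1650 (-0.068 and 0.011). In counts, 3 rose and 1 fell in PC9 under erlotinib, 2 rose and 1 fell under osimertinib, and 1 fell in H1650 under each drug, BIRC5. Of all genes, 32.7% rose in PC9 under each drug, and the medians of the 4 genes were 0.91, 0.52, -0.48 and -0.36.

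Among the 9 genes listed as apoptosome regulators, 8 fell in PC9 under erlotinib and 7 under osimertinib. In H1650 6 fell under each drug, and the rest did not pass the threshold in either line. The list was not sorted by whether a gene promotes or restrains apoptosome assembly, so its counts carry no direction of function. Of all genes, 29.1% and 28.7% fell in PC9 and 18.5% and 17.9% in H1650, and the medians of the 9 were -0.55, -0.66, -0.43 and -0.28. CSE1L fell by 2.57 and 2.70 on the log2 scale in PC9 and by 0.59 and 0.65 in H1650, and HSP90AA1, the stress-inducible cytosolic HSP90, by 1.82 and 1.61 and by 0.71 and 0.61. APIP, an APAF1-interacting protein, fell by 0.39 and 0.64 in PC9 and did not change past the threshold in H1650 (0.022 and 0.12). HSPA1B fell in PC9 under erlotinib (-0.47) and was not called elsewhere, and the split of reads between it and its near-identical copy HSPA1A is uncertain.

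The 5 IAP antagonists and mitochondrial death genes had 1 higher and 1 lower in PC9 under erlotinib, 2 and 2 under osimertinib, and 1 higher in H1650 under each drug, beside 61.8%, 61.4%, 36.5% and 35.7% of all genes changed. Their medians were -0.091, -0.31, 0.068 and 0.027. XAF1, an interferon-inducible gene whose product binds XIAP, rose in all 4 comparisons (1.90 and 1.99 in PC9, 1.87 and 1.82 in H1650), where XIAP itself did not change past the threshold. AIFM1 fell in PC9 (-0.64 and -0.59) and not past the threshold in H1650 (-0.025 and 0.16). HTRA2 fell in PC9 under osimertinib (-0.39), and ENDOG was called in none of the 4. Of the 8 caspase substrates, 2 rose and 3 fell in PC9 under erlotinib, 2 rose and 4 fell under osimertinib, 4 fell in H1650 under erlotinib, and 1 rose and 3 fell under osimertinib. That is 5, 6, 4 and 4 of 8, beside 61.8%, 61.4%, 36.5% and 35.7% of all genes, with medians of -0.20, -0.17, -0.18 and -0.11. GSN rose in PC9 (2.10 and 2.52). In H1650 the mean of GSN was 214 CPM at T0, 222 CPM under erlotinib and 315 CPM under osimertinib. PARP1 fell in all 4 (-1.54 and -1.60 in PC9, -0.40 and -0.42 in H1650). LMNA fell in PC9 (-0.68 and -0.41), and its H1650 means were 746 CPM at T0, 576 under erlotinib and 690 under osimertinib. ACIN1 rose in PC9 (0.33 and 0.28), with H1650 means of 152, 151 and 168 CPM in the same order.

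The genes that cIAP1 and cIAP2 work with were called in both directions. Of 9 genes, 4 rose and 4 fell in PC9 under erlotinib, 5 rose and 2 fell under osimertinib, and in H1650 1 rose and 4 fell under erlotinib and 2 rose and 4 fell under osimertinib. Of all genes, 32.7% rose and 29.1% fell in PC9 under erlotinib and 18.0% rose and 18.5% fell in H1650, with like shares under osimertinib, and the medians of the 9 were 0.17, 0.26, -0.13 and -0.032. NFKB2, which encodes the precursor of the p52 subunit of NF-kB, rose in PC9 (1.01 and 1.29) and fell in H1650 under erlotinib (-0.38), with -0.021 under osimertinib. RELB and MAP3K14 (the kinase NIK), both named after their values were seen, fell in H1650 (RELB -1.28 and -1.03, MAP3K14 -1.28 and -0.59), and in PC9 RELB rose (1.06 and 1.34) while MAP3K14 rose under osimertinib alone (0.50, with 0.17 under erlotinib). In the change from T0, 5 of the 9 genes differed between the lines for each drug (40.8% and 41.9% of all genes). As H1650 minus PC9, 1 was higher (21.1% and 21.5% of all genes) and 4 were lower (19.8% and 20.5%). For RELB this difference was -2.34 under erlotinib (SE 0.237, edgeR adjusted p = 3.82e-09) and -2.37 under osimertinib (SE 0.233, adjusted p = 1.95e-09). TRAF1 rose in all 4 comparisons (1.88, 1.67, 0.78 and 0.87), TNFRSF12A fell in all 4 (-0.80, -0.70, -1.03 and -0.93), and TRAF3 fell in 3, all but H1650 under erlotinib (-0.13).

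Canonical NF-kB targets and subunits did not move one way. Of 10, 3 rose and 4 fell in PC9 under erlotinib, 4 rose and 4 fell under osimertinib, and 2 rose and 2 fell in H1650 under each drug, beside 61.8%, 61.4%, 36.5% and 35.7% of all genes changed. Their medians were -0.17, -0.30, -0.068 and -0.14. NFKBIA rose in all 4 comparisons (1.05 and 1.65 in PC9, 0.87 and 1.09 in H1650) and TNFAIP3 fell in all 4 (-3.21 and -2.63, -0.86 and -1.05). ICAM1 rose in PC9 (2.11 and 3.08) and was called in neither H1650 comparison (-0.52 and -0.073), and NFKB1 fell in PC9 (-0.79 and -0.58). Of the 7 tested genes near BIRC2 and BIRC3 on chromosome 11, 1 rose and 2 fell in PC9 under erlotinib, 3 rose and 1 fell under osimertinib, 2 fell in H1650 under erlotinib, and 1 rose and 2 fell under osimertinib, with medians of 0.16, 0.29, -0.061 and -0.030. That is 3, 4, 2 and 3 of 7, beside the same shares of all genes. DYNC2H1 rose in PC9 (1.72 and 1.57), DCUN1D5 fell in all 4 (-1.01, -1.25, -0.47 and -0.39), and CEP126 and CFAP300, the latter with as few as 1 read in a PC9 library, were called in none.

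**Figure D4:**
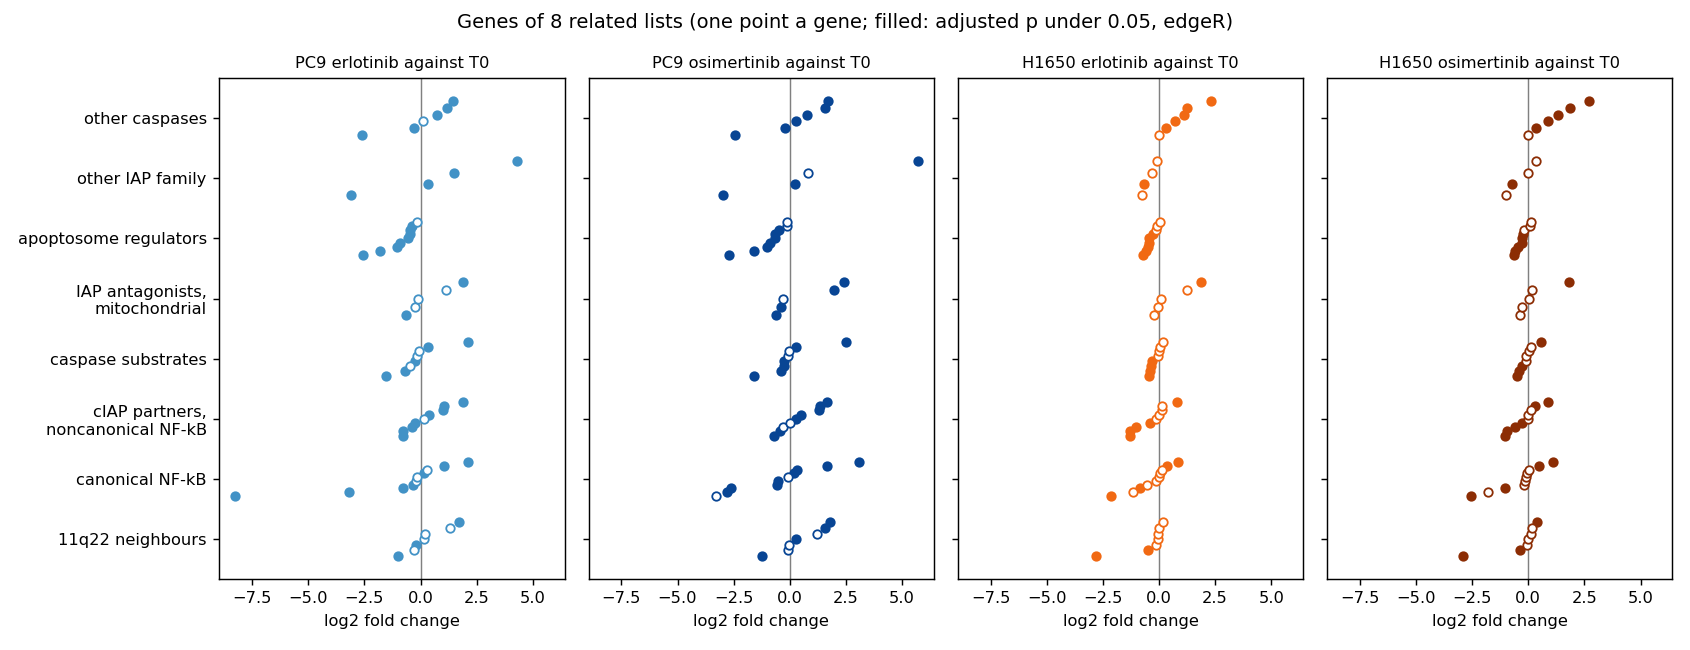
Log2 fold change (horizontal axes) of the 58 tested genes of 8 related lists (rows) in the 4 comparisons of drug against T0 (panels); each point is 1 gene and filled points have an edgeR adjusted p under 0.05. The apoptosome regulators lie at or below 0 in PC9, where 8 and 7 of 9 fell, and the cIAP partners spread to both sides in every panel.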

How the data were processed

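The authors prepared RNA from PC9 and H1650 cells, sequenced it and deposited raw read counts per gene for 12 libraries, with a gene length column. The study's methods name the DolphinNext pipeline, the counting is by featureCounts, and the processing notes name GRCh38 and DESeq2. The aligner, annotation release and strand setting are not given in the sources used here. Groups came from the line, treatment and time in the labels.

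From these counts, genes passing edgeR's filterByExpr (19108 of 60591) were scaled by TMM (factors 0.941 to 1.08) and fitted with a mean per group over all 12 libraries, using the quasi-likelihood test in edgeR 4.0.16 (R 4.3.3) with Benjamini-Hochberg adjustment over all tested genes and a threshold of 0.05, in 11 contrasts. The fit left 6 residual degrees of freedom, to which edgeR added 20.7 prior degrees of freedom estimated over the tested genes. The common biological coefficient of variation was 0.0656. CPM used the effective library sizes, and TPM the deposited lengths. Likeness used log2(CPM + 0.5). Standard errors were taken from the fold change and the F statistic. The 95% intervals came from the t distribution with the residual and prior degrees of freedom together.

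The members and gene lists were chosen with earlier results of these data known. Some genes of the caspase list are not reported here and were left out of its counts. The text names the 8 members in every contrast and, from each list, the 2 genes with the highest and the 2 with the lowest mean change over the 4 drug contrasts among tested genes averaging at least 1 CPM (all where 4 or fewer), plus 2 genes most like each member; others are said to be chosen after their values were seen. Counts were simulated with 200 genes changed by 1 on the log2 scale. The edgeR steps recovered 188 in the PC9 erlotinib contrast, with 16 false calls among 17926 genes, and 166 in the erlotinib difference between lines. Changed genes were drawn from well-counted genes only, with equal numbers rising and falling, and no other gene changed. The simulation therefore does not speak for low counts such as those of DIABLO, or for changes as widespread as those here. Libraries of a group differed by more than counting noise (chi-square per gene 4.03 to 7.16), so none was a repeat deposit. The alternatives were DESeq2 1.42.0, other scalings and filters, 1 fit per line, a replicate block, a stricter threshold, and leaving out each library in turn.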

Additional observations from a re-analysis of the deposited data

Results flagged for a closer look

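The change from T0 differed between the lines, by the test of the difference itself, for 4 members under erlotinib and 5 under osimertinib. Differences are given here as the log2 change in H1650 minus that in PC9. For APAF1 the difference was -0.62 under erlotinib and -1.11 under osimertinib, with PC9 rising and H1650 not changing past the threshold. For CYCS it was 1.03 and 1.33, both lines falling. For BIRC2 it was -0.57 and -0.60, and for BIRC3 -1.25 and -1.49, the 1 member of the 8 called in opposite directions in the lines under both drugs. The erlotinib call of BIRC3 in PC9 was lost with DESeq2 (adjusted p = 0.0876), without a low-count filter (edgeR adjusted p = 0.0950) and without some single libraries. For DIABLO it was -0.92 under osimertinib, resting on 23 to 163 reads a library. What lies behind these differences was not tested.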

How the results depend on the processing

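Over 22 alternative settings, 1819 values of the members were set beside the main ones, and 1723 kept their direction and side of the threshold. The stricter threshold reused the main fit, and many left-out libraries lay outside the comparison they were checked for. Part of that agreement was therefore fixed beforehand. No value past the threshold changed direction. The 53 values that did change sign lay near 0 and had adjusted p-values above 0.05, and the cause was not tested. With library totals XIAP was 0.055 in PC9 erlotinib, and in H1650 erlotinib APAF1 was 0.014, CASP6 0.11 and BIRC2 0.044. That setting moved the median of all genes by 0.125 in H1650 erlotinib against T0, where relative to it the 3 values stay below 0, and there XIAP passed the threshold (0.28). It also gave 0.023 for the CASP9 and 0.024 for the XIAP difference between lines (erlotinib, osimertinib), and -0.029 for CASP9 and -0.015 for CASP6 in H1650 osimertinib against erlotinib. Upper quartile factors gave XIAP 0.057 and 0.0039 in PC9 under the 2 drugs and the CASP9 osimertinib difference -0.039. A minimum of 10 counts in every library gave XIAP 0.015 in PC9 erlotinib, CASP6 0.0070 in H1650 erlotinib and the CASP9 osimertinib difference -0.011. No filter gave differences of 0.024 (CASP9, erlotinib) and 0.068 (XIAP, osimertinib), and -0.0098 for CASP6 between lines at T0. CASP9 in PC9 osimertinib against erlotinib was 0.0020 with DESeq2 and 0.0030 with RLE factors.

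Leaving out each library gave these ranges. XIAP ran from -0.090 to 0.016 and from -0.17 to 0.031 in PC9 under the 2 drugs, and its osimertinib difference from -0.11 to 0.099. CASP6 ran from -0.18 to 0.19 and from -0.14 to 0.23 in H1650 under the 2 drugs, its differences from -0.0076 to 0.35 and from -0.31 to 0.046, and at T0 from -0.16 to 0.19. BIRC2 in H1650 erlotinib ran from -0.18 to 0.0055. The CASP9 differences ran from -0.17 to 0.16 and from -0.074 to 0.12. In osimertinib against erlotinib, PC9 gave XIAP -0.14 to 0.066, BIRC2 -0.20 to 0.0058 and CASP9 -0.078 to 0.057, and H1650 gave BIRC3 -0.024 to 0.36, CASP9 -0.13 to 0.20 and CASP6 -0.014 to 0.096.

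The number of members called moved by over 1.5 times in 2 comparisons. For osimertinib against erlotinib in PC9 it was 2, against 1 with DESeq2, 1 at a threshold of 0.01, 4 with the replicate block and 0 to 3 when a library was left out (1 without erlotinib library 1, 0 without osimertinib library 1). For the same pair in H1650 it was 0, against 1 with library totals and 1 with the replicate block (XIAP in both). The labels give replicate numbers and library names, the names running in sequence within each replicate number, and name no batch. Same-numbered libraries deviated together with a correlation over 0.1 in 12 of 15 group pairs (0.0021 to 0.45, median 0.23). Since 3 pairs fell short of 0.1 and no label names a batch, the fits without the block are the ones reported. The block added CYCS (adjusted p = 0.0149) and CASP6 (0.0256) in PC9 osimertinib against erlotinib, and also brought BIRC2 in H1650 osimertinib against T0 past the threshold (-0.21, adjusted p = 0.0044), as did RLE factors, 1 fit per line and leaving out either PC9 erlotinib library. DIABLO had 23 to 163 reads a library.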
